A study of Homo sapiens with 9 samples.

Results

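AP-1 (activating protein-1) is a dimer of a FOS family protein with a JUN family protein, or of 2 JUN proteins, joined through their leucine zippers. The 9 genes described here are the FOS family (FOS, FOSB, FOSL1 and FOSL2), the JUN family (JUN, JUNB and JUND), EGR1, which encodes a zinc finger factor, and ATF3, which encodes another bZIP factor that can pair with JUN. They were chosen by name, among 63677 gene identifiers in the count files, and each was matched to 1 identifier. FOS, FOSB, JUN, JUNB, EGR1 and ATF3 are immediate early genes, which growth factors and stress switch on within minutes without new protein synthesis. Known routes to such genes are serum response factor (SRF) with ETS partners of the ELK group, and CREB and ATF proteins. In epithelial tumors with active RAS and ERK signaling, FOSL1 is a delayed target of the same pathway, and its protein is stabilized by ERK.

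Poly(A) RNA was sequenced from 3 lines with 3 libraries each (n = 3 per line), and total RNA had been isolated in triplicate. SW480 is the parental human colon adenocarcinoma line, labelled wild type and, by the protocols, neither transfected nor selected, although the treatment label names BASP1 activation for SW480 as for the other lines. SW480-B is a line grown from 1 cell clone that was selected with G418 after nucleofection of a plasmid with the BASP1 coding sequence under a CMV promoter. SW480-gRNA-B-all carries dCas9-VP64 and MS2-P65-HSF1, which together activate transcription from guide-bound promoters, and pooled sgRNAs to the BASP1 promoter, so that it expresses the endogenous gene, and it was derived from a cloned line with both activators. BASP1 is a cytoskeleton-associated and nuclear protein that acts as a transcriptional cosuppressor. A line with the activators and no BASP1 guide, or with an empty plasmid, was not analysed here, so that BASP1 cannot be told apart from cloning, drug selection and the activators themselves.

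The libraries held 25238831 to 29355669 counts on genes. Levels are given as CPM, the count of a gene relative to the size of its library, scaled with TMM factors over the 9 libraries, and 3 counts, the limit that a count of 0 allows, came to 0.102 to 0.119 CPM. BASP1 was at 11.9, 8.04 and 0.692 CPM in SW480, at 268, 269 and 250 CPM in SW480-B, and at 167, 304 and 300 CPM in SW480-gRNA-B-all, in the order of the replicate numbers. The SW480 libraries thus differed 17.2-fold among themselves, and every one lay below every BASP1-expressing library. Replicates 2 and 3 of SW480-gRNA-B-all lay closer together than any other pair, with 2.08% of genes more than 2-fold apart, against 11.1% to 30.8% in the other 8 pairs of one line. Their chi-square per gene was 3.13, above the value of 1 that sampling noise gives and far below the 80.9 to 296 of the other 8 pairs. They were kept as separate libraries. Of 8 markers of colon epithelium, KRT20 was below 1 CPM in every library, and their summed level was 8321 to 10979 CPM in SW480, 6997 to 11366 CPM in SW480-B and 6336 to 7810 CPM in SW480-gRNA-B-all. Of these markers, VIL1 was lower in SW480-gRNA-B-all (log2 fold change -4.44) and in SW480-B (-2.94) than in SW480, and CDX2 was lower in SW480-gRNA-B-all cells than in SW480 (-3.28) or SW480-B (-4.12). The 7 markers of fibroblasts and leukocytes summed to 4.55 to 6.70, 4.56 to 10.3 and 9.93 to 13.3 CPM in these lines, with COL3A1 at 0 in every library, and COL1A1 was higher in SW480-gRNA-B-all cells than in SW480 (1.21). With a library left out, the calls against SW480 were kept in 2 of 6 fits for COL1A1, in 3 of 6 for CDX2, and for VIL1 in 3 of 6 for SW480-gRNA-B-all and 2 of 6 for SW480-B. The part of these markers in the results below was not tested.

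The regions just before the transcription starts of the 9 genes are shown where they hold the elements through which immediate early genes are known to respond. In the 350 bases before the start of the canonical transcript (GENCODE 44 placed on GRCh37), 5 motifs were searched on both strands. The CArG box is the SRF-binding core of the serum response element. TGACG is the recognition core of CREB and ATF proteins, and TGACGTCA is the full cAMP response element, which holds TGACG on either strand. TGANTCA is the AP-1 site with any base allowed in its middle, which is wider than the consensus. TGACATCA is the variant AP-1 site known from the JUN promoter. A CArG box was found before FOS, FOSB and EGR1, against 1.7% of 19874 promoters of protein-coding genes. TGACG was found before 9 of 9 genes, against 30.7% of promoters, TGACGTCA before FOSB and JUND, against 2.68%, TGACATCA before JUN, against 2.22%, and TGANTCA before none, against 6.7%. The stretches of FOS, FOSB and EGR1 that hold a CArG box are shown, with the stretches of JUN and JUND that hold an 8-base AP-1 or CREB motif. Each is written 5′ to 3′ on the strand of its gene, in lower case with the matched motifs in capitals, and a match is a description of letters and not a bound site.
FOS, chr14:75745181-75745250, plus strand, 350 to 281 bases before the start: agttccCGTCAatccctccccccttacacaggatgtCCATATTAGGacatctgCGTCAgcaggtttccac
FOSB, chr19:45970917-45971013, plus strand, 337 to 241 bases before the start: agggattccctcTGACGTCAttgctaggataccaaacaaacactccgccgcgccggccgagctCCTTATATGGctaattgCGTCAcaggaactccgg
EGR1, chr5:137801021-137801118, plus strand, 147 to 50 bases before the start: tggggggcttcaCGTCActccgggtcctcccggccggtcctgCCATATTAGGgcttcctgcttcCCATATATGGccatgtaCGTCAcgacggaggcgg
JUN, chr1:59249767-59249798, minus strand, 79 to 48 bases before the start: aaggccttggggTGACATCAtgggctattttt
JUND, chr19:18392613-18392644, minus strand, 212 to 181 bases before the start: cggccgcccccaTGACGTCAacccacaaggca
FOS and EGR1 hold the same CArG box letters, and EGR1 holds a second one beside it. The levels of these 3 CArG box genes are given below, and the part of the motif in them was not tested.

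Per length of transcript, FOSL1 was the most abundant of the 9 genes and FOSB the least abundant in each line. FOSL1 reached 54.7 ± 21.6, 99.8 ± 47.2 and 104 ± 27.4 CPM per kilobase (mean ± SD, n = 3) in the parental line, in SW480-B and in SW480-gRNA-B-all, and FOSB 1.15 ± 0.506, 2.12 ± 0.390 and 1.06 ± 0.505 CPM per kilobase. In SW480, neighbours in the order FOSL1, JUND, JUNB, FOSL2, EGR1, JUN, FOS and ATF3 overlapped in their libraries, and ATF3 lay above FOSB without overlap. In SW480-B, FOSL1 lay above EGR1 without overlap, and JUND, FOS, FOSL2, JUN and JUNB followed EGR1 with overlap between neighbours. In SW480-gRNA-B-all, FOSL1 lay above EGR1 and EGR1 above JUND without overlap, FOSL2, JUNB and JUN overlapped their neighbours, and FOS ranked below JUN without overlap. With the length of all annotated exons in place of the canonical transcript, FOS moved from rank 4 to rank 7 in SW480-B, and FOSL2 and EGR1 changed places in SW480, while the other ranks at the top and the bottom of each order were kept.

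**Figure D1:**
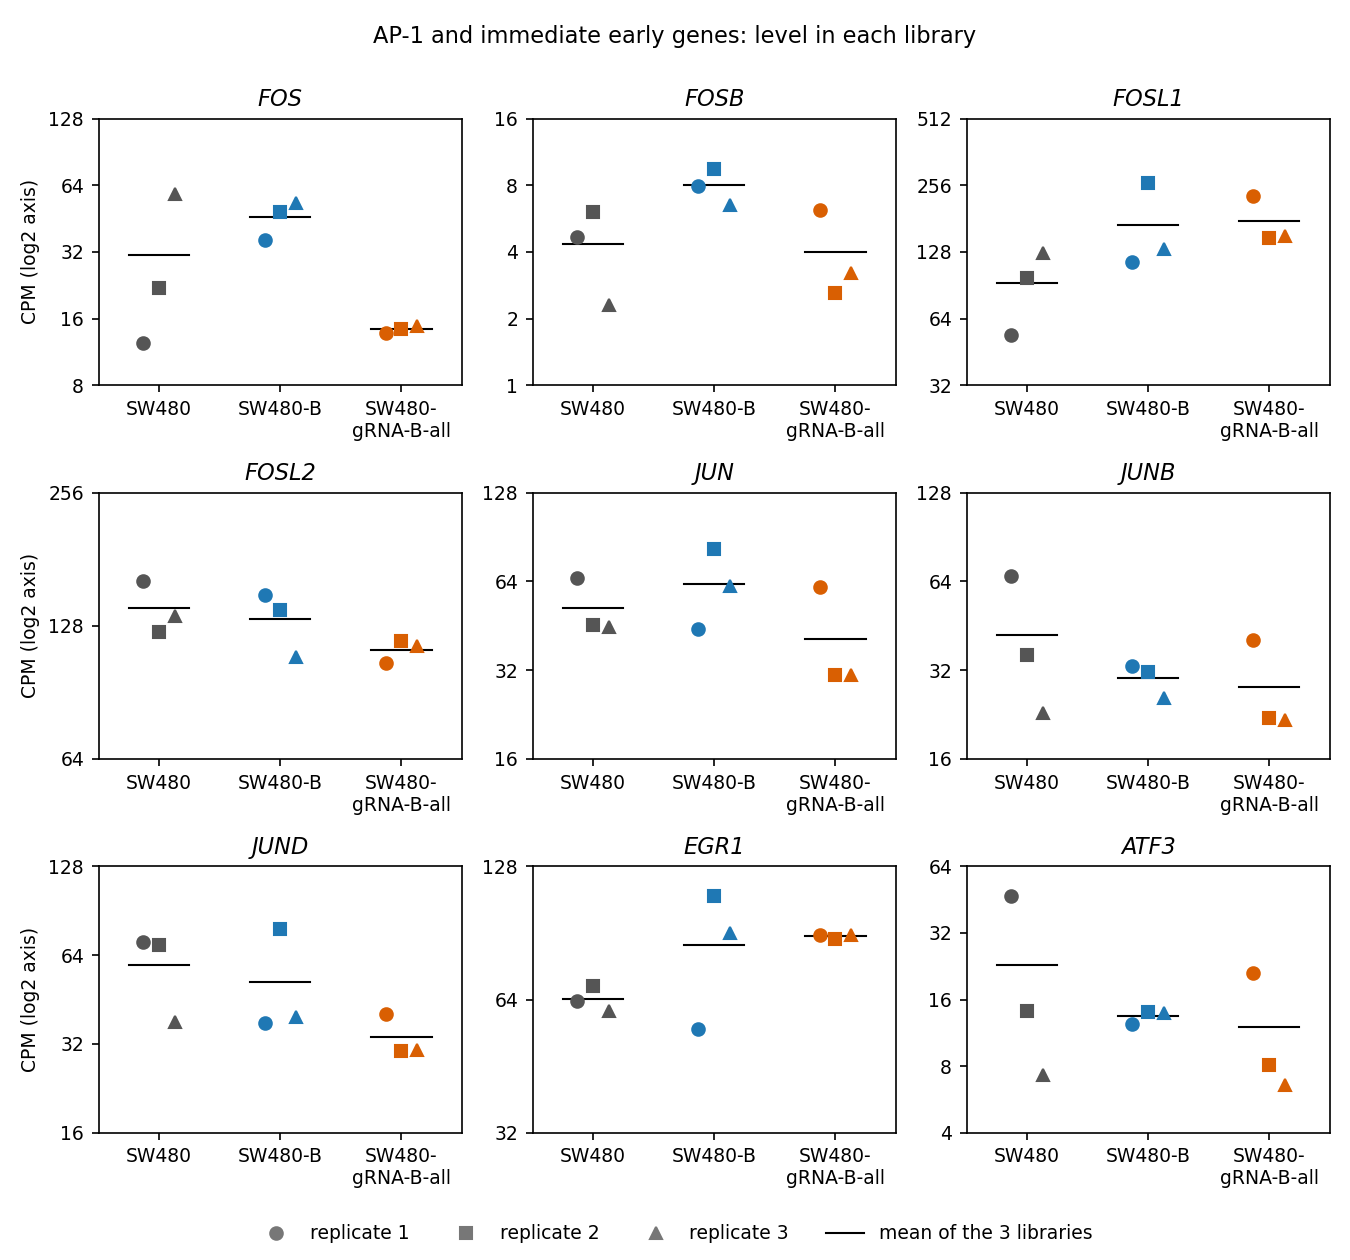
Level of each of the 9 genes in CPM on a log2 axis in every library, with a panel per gene, a column of points per line, the point shape giving the replicate and the horizontal bar the mean of 3 libraries. FOS lies at 13.7 to 14.8 CPM in SW480-gRNA-B-all, below the 36.2 to 53.0 CPM of SW480-B, while the SW480 libraries span 12.4 to 58.4 CPM.

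Comparing the BASP1-expressing lines with each other and with SW480 asks whether the AP-1 genes differ in RNA level when BASP1 is present. The difference that passed the test was that of FOS between the BASP1-expressing lines, where it was lower in SW480-gRNA-B-all cells than in SW480-B. A gene was called with an adjusted p under 0.05 (edgeR quasi-likelihood test, Benjamini-Hochberg over all genes tested) and a change above 2-fold, and the 9 genes passed the filter on low counts in each comparison. In bulk RNA, fewer cells with a transcript and less of it per cell cannot be told apart. SW480-gRNA-B-all and SW480-B were compared with the same SW480 libraries, and so these comparisons are not independent. Since nothing says that the libraries came from separate cultures, p-values measure only the spread between these libraries.

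For SW480-gRNA-B-all versus SW480, 0 of 9 genes were called higher, where 1.89% of 16100 genes tested were, and 0 of 9 were called lower, where 4.66% were. By edgeR, 3 of the 9 (FOSL1, JUND and EGR1) had an unadjusted p under 0.05, near the 28.4% of all genes. DESeq2 called 0 of 9 as well, where it called 860 of 29822 genes higher and 1520 lower. EGR1 had a DESeq2 adjusted p of 0.0330 and a change below 2-fold. The 3 libraries of one line lay all above or all below the other's for 3 of 9 genes (FOSL1 and EGR1 higher, FOSL2 lower), a share near the 38.0% of all genes. For SW480-B against SW480, 0 of 9 were called higher, against 0.0931% of 16106 genes, and 0 of 9 lower, against 1.25%. No gene of the 9 had an unadjusted p under 0.05 by edgeR, where 15.8% of all genes had one. By DESeq2, 2 of 9 had one, beside 3257 of 30000 genes. DESeq2 called 0 of 9, where it called 371 genes higher and 732 lower. The libraries did not overlap for 1 of 9 (FOSB, higher), against 22.4% of all genes. Blocked on the replicate number, this comparison had 56 genes higher and 263 lower in place of 15 and 201, and of the 9 genes again 0 were called, with 3 at an unadjusted p under 0.05 where 22.1% of all genes were. For SW480-gRNA-B-all versus SW480-B, 0 of 9 were called higher, against 2.31% of 15846 genes, and 1 of 9, FOS, was called lower, against 4.37%. Both FOS and FOSB lay without overlap, 2 of 9 against 30.4% of all genes. The median log2 fold change of the 9 genes was -0.36, 0.30 and -0.23 in these comparisons, beside -0.05, -0.00 and -0.00 over all genes tested.

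**Figure D2:**
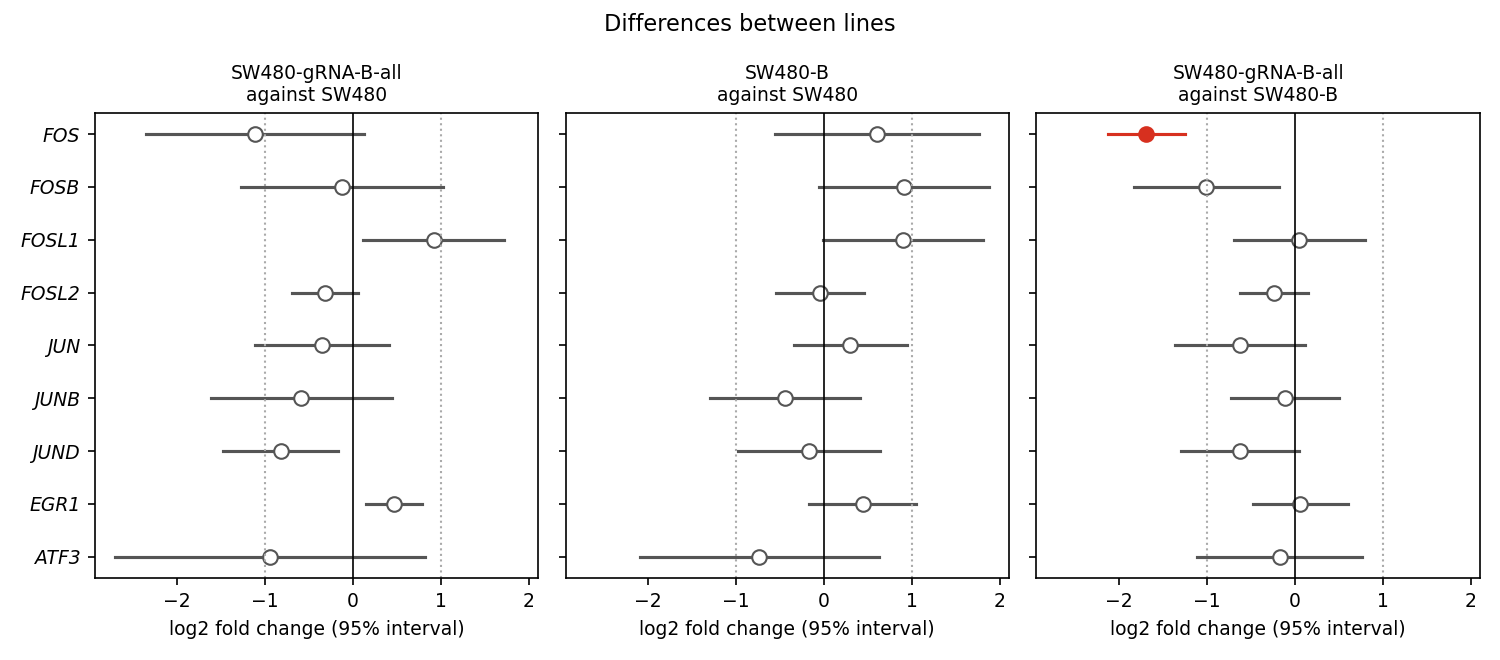
Log2 fold change of each of the 9 genes (points) with its 95% interval (lines) in the 3 comparisons, with a dotted line at 2-fold in either direction and filled red points for genes called. FOS in SW480-gRNA-B-all versus SW480-B, at -1.68, is the single filled point, and most other intervals cross 0.

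FOS (ENSG00000170345, GRCh37 chr14:75745529-75748933, plus strand) encodes the archetypal immediate early AP-1 subunit, which is rapidly induced and rapidly turned over. It was at 12.4, 21.9 and 58.4 CPM in SW480, at 36.2, 48.6 and 53.0 CPM in SW480-B, and at 13.7, 14.4 and 14.8 CPM in SW480-gRNA-B-all. The SW480 libraries spread 4.69-fold and enclosed the range of SW480-gRNA-B-all, whose libraries spread 1.08-fold, and replicate 3 of SW480 lay above every SW480-B library. FOS was lower in SW480-gRNA-B-all cells than in SW480-B by a log2 fold change of -1.68 (SE 0.19, 95% interval -2.12 to -1.25, edgeR adjusted p = 0.00277), which is 0.311 of the level. The call was kept with each of the 6 libraries left out in turn, with adjusted p between 0.00602 and 0.0201, and was lost when the 9 libraries were fitted together with 1 estimate of the spread (log2 fold change -1.68, adjusted p = 0.0733). Against SW480, the values were -1.12 in SW480-gRNA-B-all (95% interval -2.36 to 0.12, adjusted p = 0.211) and 0.61 in SW480-B (-0.55 to 1.77, adjusted p = 0.602), and neither passed the test. Without replicate 3 of SW480, FOS was called higher in SW480-B than in SW480 (log2 fold change 1.45, adjusted p = 0.0449). By Northern analysis, qPCR and immunoblot, the authors report that FOS was strongly activated in BASP1-expressing cells. The main fits here did not show this, and the SW480-gRNA-B-all value lay in the other direction. Why these assays differ was not tested. BASP1 itself did not pass a test between the BASP1-expressing lines (log2 fold change -0.03, 95% interval -0.58 to 0.52). The authors report a shorter BASP1 transcript from the plasmid than from the endogenous gene, so that like counts need not be like numbers of transcripts. The 79 genes tested within 5 Mb of FOS were at a median of 0.35 on the log2 scale in the same comparison, opposite in sign to FOS.

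FOSB (ENSG00000125740, chr19:45971253-45978437, plus strand) encodes a close relative of FOS with similarly brief induction. It was at 4.65, 6.07 and 2.29 CPM in SW480, at 7.93, 9.49 and 6.54 CPM in SW480-B, and at 6.17, 2.61 and 3.21 CPM in SW480-gRNA-B-all. The SW480-B libraries were the 3 highest of the 9. FOSB was at -1.002 on the log2 scale in SW480-gRNA-B-all versus SW480-B (SE 0.36, 95% interval -1.83 to -0.18, edgeR adjusted p = 0.131), at 0.91 in SW480-B against SW480 (-0.05 to 1.87, adjusted p = 0.341) and at -0.13 in SW480-gRNA-B-all versus SW480 (-1.28 to 1.03, adjusted p = 0.884). DESeq2 called it lower in SW480-gRNA-B-all cells than in SW480-B (adjusted p = 0.0473) and, by edgeR, without replicate 1 of SW480-gRNA-B-all (log2 fold change -1.44, adjusted p = 0.0289). ERCC1 overlaps FOSB on the opposite strand and had 2086 to 3848 counts per library, beside 63 to 266 for FOSB. Whether the counting used strand is not given in the sources used here, and the libraries themselves kept 99.2% to 99.5% of bases on 1 strand.

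FOSL1 (ENSG00000175592, chr11:65659520-65668044, minus strand) encodes FRA-1, the FOS family subunit tied to invasive growth in many carcinomas. It was at 54.1, 98.02 and 127 CPM in SW480, at 116, 262 and 132 CPM in SW480-B, and at 230, 147 and 152 CPM in SW480-gRNA-B-all. Every SW480-gRNA-B-all library lay above every SW480 library, while 1 of 3 SW480-B libraries lay within the SW480 range. The log2 fold changes against SW480 were 0.92 in SW480-gRNA-B-all (SE 0.34, 95% interval 0.12 to 1.72, edgeR adjusted p = 0.135) and 0.90 in SW480-B (SE 0.40, -0.01 to 1.81, adjusted p = 0.321), and neither passed the test after adjustment. Between the BASP1-expressing lines the difference was 0.06 (95% interval -0.69 to 0.80), an interval that still holds changes of 1.74-fold.

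FOSL2 (ENSG00000075426, chr2:28615315-28640184, plus strand) encodes FRA-2 and varied least of the FOS family. It was at 161, 124 and 135 CPM in SW480, at 150, 139 and 109 CPM in SW480-B, and at 105, 118 and 115 CPM in SW480-gRNA-B-all. The SW480-gRNA-B-all libraries lay just below the lowest SW480 library and on both sides of the lowest SW480-B library. Its log2 fold changes were -0.32 in SW480-gRNA-B-all versus SW480 (95% interval -0.69 to 0.05), -0.05 in SW480-B against SW480 (-0.54 to 0.45) and -0.23 between the BASP1-expressing lines (-0.62 to 0.16), with edgeR adjusted p of 0.231, 0.943 and 0.443.

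JUN (ENSG00000177606, chr1:59242517-59249720, minus strand) encodes the JUN family member that, with FOS, makes up the classical AP-1 dimer. It was at 65.7, 45.6 and 44.8 CPM in SW480, at 44.1, 82.3 and 61.8 CPM in SW480-B, and at 61.0, 30.7 and 30.8 CPM in SW480-gRNA-B-all. Replicate 1 of SW480-gRNA-B-all lay inside the SW480 and SW480-B ranges, and its replicates 2 and 3 lay below every library of both. The log2 fold changes were -0.36 in SW480-gRNA-B-all versus SW480 (95% interval -1.12 to 0.40), 0.30 in SW480-B against SW480 (-0.34 to 0.94) and -0.62 between the BASP1-expressing lines (-1.36 to 0.12), with edgeR adjusted p of 0.492, 0.636 and 0.282.

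JUNB (ENSG00000171223, chr19:12902300-12904129, plus strand) encodes an immediate early JUN protein that restrains JUN on many targets. It was at 66.8, 36.1 and 23.0 CPM in SW480, at 33.1, 31.5 and 25.8 CPM in SW480-B, and at 40.5, 21.98 and 21.6 CPM in SW480-gRNA-B-all. The 3 lines overlapped, and replicate 1 was the highest library within each. Its log2 fold changes of -0.59 (95% interval -1.62 to 0.44), -0.44 (-1.29 to 0.41) and -0.11 (-0.72 to 0.51) in SW480-gRNA-B-all versus SW480, in SW480-B against SW480 and in SW480-gRNA-B-all versus SW480-B did not pass the test (edgeR adjusted p = 0.404, 0.605 and 0.845). HOOK2 overlaps JUNB on the opposite strand, with 828 to 1407 counts beside 631 to 1938 for JUNB.

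JUND (ENSG00000130522, chr19:18390504-18392432, minus strand) encodes the JUN protein that resting cells hold at steady levels. It was at 71.0, 69.3 and 38.0 CPM in SW480, at 37.7, 78.3 and 39.6 CPM in SW480-B, and at 40.4, 30.3 and 30.6 CPM in SW480-gRNA-B-all. In each of SW480 and SW480-B the libraries fell into high and low values, with ranges of 1.87-fold and 2.07-fold. In SW480-gRNA-B-all versus SW480 it was at -0.82 on the log2 scale (SE 0.28, 95% interval -1.47 to -0.17, edgeR adjusted p = 0.108), and without replicate 3 of SW480 JUND was called lower (log2 fold change -1.04, adjusted p = 0.0182). SW480-B against SW480 gave -0.17 (-0.98 to 0.64, adjusted p = 0.854), and the comparison of the BASP1-expressing lines gave -0.62 (-1.29 to 0.05, adjusted p = 0.239). JUND has the highest GC content of the 9 genes, 69.9% of exon bases.

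EGR1 (ENSG00000120738, chr5:137801168-137804992, plus strand) encodes the zinc finger factor that growth factor signaling induces alongside FOS. It was at 63.6, 68.7 and 60.3 CPM in SW480, at 54.9, 110 and 90.6 CPM in SW480-B, and at 89.8, 87.7 and 89.7 CPM in SW480-gRNA-B-all. All SW480-gRNA-B-all libraries lay above all SW480 libraries, while replicate 1 of SW480-B lay below both lines and the other SW480-B libraries reached at least as high as SW480-gRNA-B-all. The log2 fold change was 0.47 in SW480-gRNA-B-all versus SW480 (SE 0.13, 95% interval 0.15 to 0.78, edgeR adjusted p = 0.0756), 0.44 in SW480-B against SW480 (-0.17 to 1.05, adjusted p = 0.466) and 0.06 between the BASP1-expressing lines (-0.48 to 0.61, adjusted p = 0.893). EGR1 and FOS had log2 fold changes of opposite sign in SW480-gRNA-B-all versus SW480 and of the same sign in SW480-B against SW480. None of these was called. Replicate 1 of SW480-B was the lowest SW480-B library for FOS, FOSL1, JUN, JUND, EGR1 and ATF3, the highest for FOSL2 and JUNB, and in between for FOSB. This library also had the highest share of intronic bases of the 9 libraries, 7.27% against 3.50% and 3.94% in the other SW480-B libraries. The part of that share in these levels was not tested.

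ATF3 (ENSG00000162772, chr1:212738676-212794119, plus strand) encodes a stress-induced bZIP factor that also acts downstream of ATF4 when amino acids are short. It was at 47.2, 14.2 and 7.32 CPM in SW480, at 12.3, 14.0 and 13.9 CPM in SW480-B, and at 21.2, 8.12 and 6.58 CPM in SW480-gRNA-B-all. SW480 spread 6.45-fold and SW480-gRNA-B-all 3.22-fold, with replicate 1 highest in both, while SW480-B spread 1.14-fold. The log2 fold changes of -0.94 (95% interval -2.70 to 0.82), -0.73 (-2.09 to 0.63) and -0.17 (-1.11 to 0.77) in SW480-gRNA-B-all versus SW480, SW480-B against SW480 and SW480-gRNA-B-all versus SW480-B did not pass the test (edgeR adjusted p = 0.434, 0.589 and 0.836). Without replicate 1 of SW480 the first and the second changed sign, to 0.15 and 0.35.

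FOSL1 made up the largest share of FOS family RNA in every library. Per kilobase of canonical transcript, FOSL1 made up 50.4% to 65.4% of the FOS family in SW480, 62.0% to 76.9% in SW480-B and 77.5% to 84.996% in SW480-gRNA-B-all. The last did not overlap the others by this length. With the length of all annotated exons, replicate 2 of SW480-B lay within the SW480-gRNA-B-all range. By canonical transcript, FOS made up 9.39% to 22.6%, 11.5% to 20.9% and 4.10% to 6.17%, with SW480-gRNA-B-all apart from both. FOSL2 made up 16.3% to 38.2%, 10.3% to 20.4% and 9.87% to 15.7%, and FOSB no more than 1.96% in any library. The summed FOS family level was 91.4 ± 30.2, 144 ± 49.5 and 128 ± 26.6 CPM per kilobase (mean ± SD, n = 3). In the JUN family, JUND held 39.4% to 51.6%, 38.2% to 48.9% and 33.9% to 42.7%, with JUNB at 20.7% to 39.1% and JUN at 20.1% to 35.4% over the 9 libraries, and the lines overlapped for each member. The summed JUN family level was 69.7 ± 23.7, 62.6 ± 17.7 and 45.4 ± 14.3 CPM per kilobase. These shares are relative and describe RNA, and no test was made on them.

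**Figure D3:**
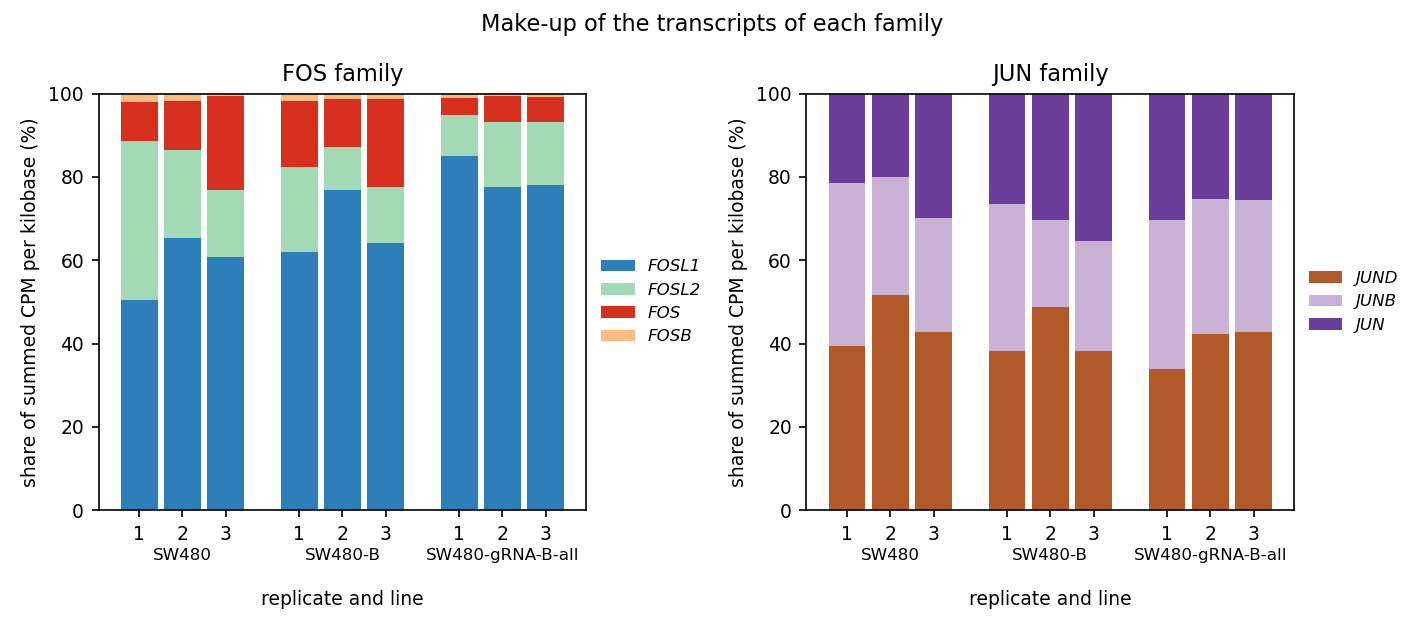
Share of each gene in the summed CPM per kilobase of the FOS family and of the JUN family, in percent, with 1 stacked bar per library. FOSL1 is the largest part of the FOS family in every library and reaches 77.5% to 84.996% in SW480-gRNA-B-all, where FOS is at 4.10% to 6.17%, and the JUN family bars resemble each other.

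Of 30 other immediate early genes, 29 were tested in SW480-gRNA-B-all versus SW480 and 2 were called higher, where 1.89% of all genes were. Counts of the related lists below are likewise to be read beside the shares of all genes called higher and lower, which were 1.89% and 4.66% in this comparison, 0.0931% and 1.25% in SW480-B against SW480, and 2.31% and 4.37% between the BASP1-expressing lines, and beside the shares with an unadjusted p under 0.05, which were 28.4%, 15.8% and 24.4%. CCN1, which encodes the secreted matrix protein CYR61, was at 5.48, 33.4 and 48.7 CPM in SW480 and at 189, 321 and 331 CPM in SW480-gRNA-B-all (log2 fold change 3.26, edgeR adjusted p = 0.0434). CSRNP1, a nuclear protein gene, was at 13.5, 10.97 and 8.95 CPM and at 49.9, 26.4 and 28.7 CPM (1.64, adjusted p = 0.0286). Both genes lay without overlap between the lines. In SW480-B against SW480, 0 of 30 were called by edgeR, and 7 had an unadjusted p under 0.05. That number was 5 of 29 in SW480-gRNA-B-all versus SW480 and 11 of 29 between the BASP1-expressing lines. The median of the list was 0.50 in SW480-B against SW480, 0.22 in SW480-gRNA-B-all versus SW480 and -0.01 between the BASP1-expressing lines. In SW480-gRNA-B-all versus SW480-B, 1 of 29 was called in each direction, CCN1 higher (2.47, adjusted p = 0.00376) and TRIB1 lower. TRIB1 encodes a pseudokinase that binds MEK1 and the COP1 ubiquitin ligase. It was at 58.0, 131 and 198 CPM in SW480, at 169, 201 and 197 CPM in SW480-B, and at 55.2, 51.6 and 48.3 CPM in SW480-gRNA-B-all. TRIB1 was lower in SW480-gRNA-B-all cells than in SW480-B by a log2 fold change of -1.87 (SE 0.15, adjusted p = 0.000995), and this call and that of CCN1 were kept in 6 of 6 fits with a library left out, while that of CCN1 was lost with the 9 libraries in 1 fit.

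**Figure D4:**
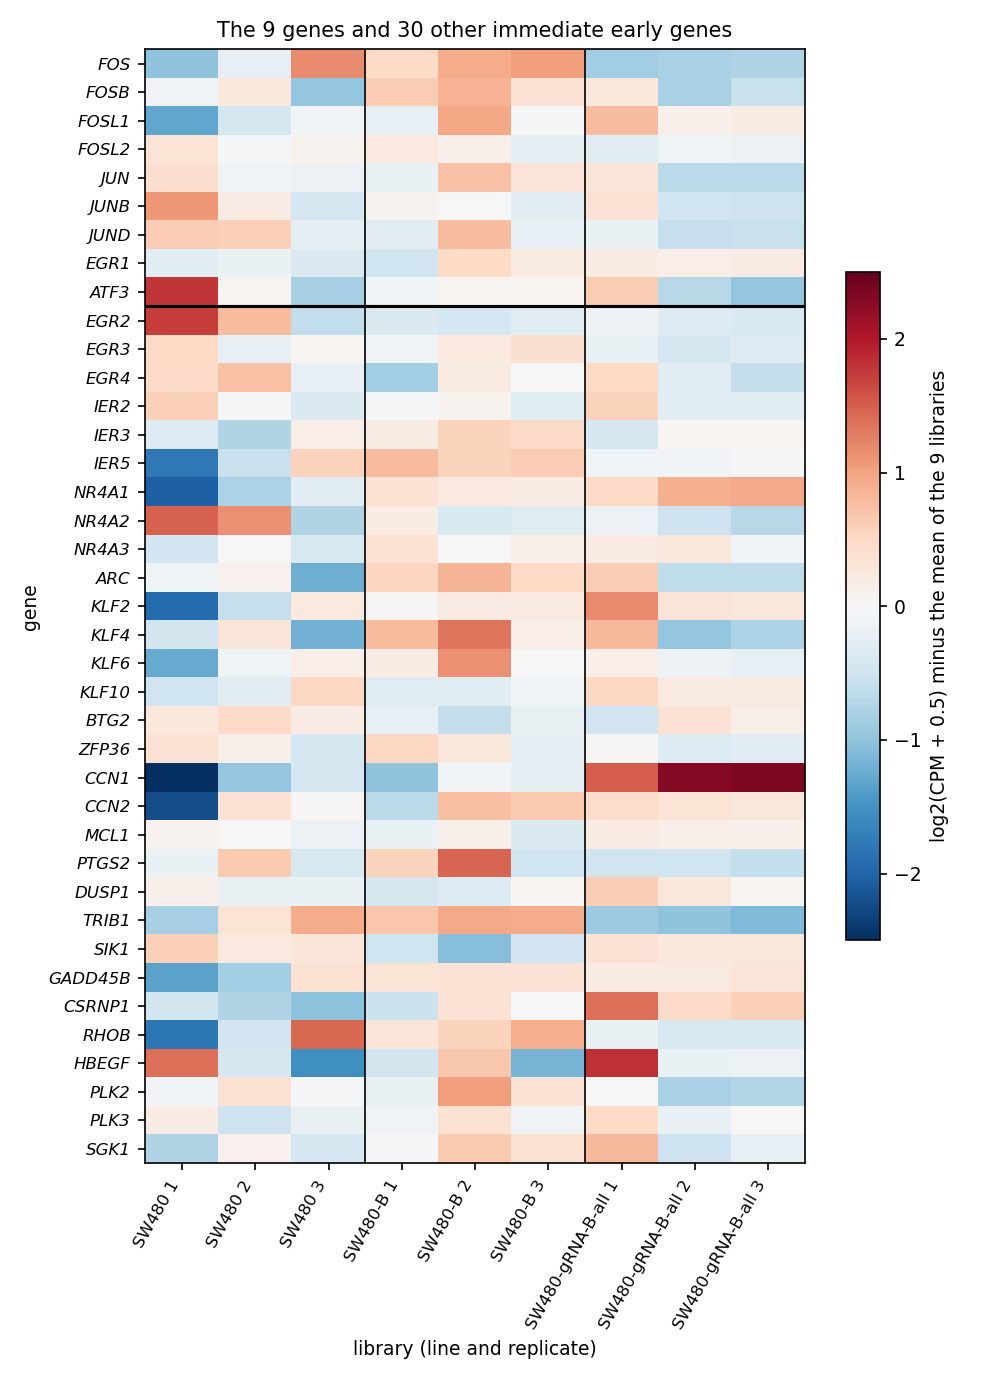
Level of the 9 genes (above the line) and of 30 other immediate early genes in each library, as log2(CPM + 0.5) minus the gene's mean over the 9 libraries, red above and blue below the mean, with values past either end of the scale drawn in its end color. FOS and TRIB1 are below their means in each SW480-gRNA-B-all library and in replicate 1 of SW480 and above them in each SW480-B library, while CCN1 is above its mean in each SW480-gRNA-B-all library.

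TRIB1 was also the gene nearest to FOS over the 9 libraries, as measured by the root mean square difference of log2 CPM after each gene was centred on its own mean. The distance was 0.259, beside a standard deviation of 0.925 for FOS itself, and PHLDA3 (0.280) and an unnamed gene (0.278) came next. ARC, a neuronal immediate early gene, was the nearest to FOSB (0.183), before a pseudogene of ferritin heavy chain (0.216) and BMAL1 (0.259). MTHFD2, which encodes a mitochondrial folate enzyme, was the nearest to ATF3 (0.158), with LCK and TUBE1 at 0.185 and 0.186. FHL3 (0.144), HPCAL1 and TMEM106A were nearest to FOSL1, and VASP (0.145), LINC02029 and MAGED2 to JUN. The nearest to JUNB was ZNF506 (0.0691), before MIB2 and LENG8-AS1, and the nearest to FOSL2 was GTF3C2-AS2 (0.0602), before LTO1 and CSPP1. For JUND an unnamed gene came first (0.127), before RHBDD1 and REPS1, and for EGR1 a pseudogene of HNRNPA1 (0.133), before ASPH and NOL6. Among the 9 genes themselves, the closest pair was JUN and JUND (0.353), then JUNB and ATF3 (0.369), and FOS and ATF3 were the farthest apart (1.37). Genes that vary little are close to many others by this measure, and the points share the 9 libraries.

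Of 15 other bZIP factors that can pair with AP-1 proteins, BATF2 was called higher in SW480-gRNA-B-all cells than in SW480 (log2 fold change 1.68, edgeR adjusted p = 0.0410), and MAF was called lower (-4.07, adjusted p = 0.0385). MAF, a large bZIP factor known from lens and T cell differentiation, was at 9.03, 2.45 and 1.06 CPM in SW480, at 0.464, 0.499 and 0.707 CPM in SW480-B, and at 0.237, 0.301 and 0.2005 CPM in SW480-gRNA-B-all, so that the 3 lines did not overlap. In SW480-B against SW480 it was at -2.86 and did not pass the test (adjusted p = 0.151). In SW480-gRNA-B-all versus SW480-B, BATF3 was higher (1.96, adjusted p = 0.0468), and SW480-B against SW480 had 0 of 15 called by edgeR, with 1 at an unadjusted p under 0.05. Of 12 factors that bind immediate early promoters or assist there (SRF, its ELK and MRTF partners, CREB and STAT factors), 1, ELK1, passed the test, with a lower level in SW480-gRNA-B-all cells than in SW480. ELK1, an ETS factor that ERK phosphorylates on SRF-bound promoters, was at 116, 108 and 85.3 CPM in SW480, at 69.4, 82.5 and 77.7 CPM in SW480-B, and at 52.7, 40.2 and 38.9 CPM in SW480-gRNA-B-all (-1.23, adjusted p = 0.0189), the last below both other lines without overlap. SRF itself was at 79.1, 57.0 and 46.5 CPM in SW480 and at 55.8, 40.0 and 39.5 CPM in SW480-gRNA-B-all, which is -0.44 on the log2 scale and did not pass the test. The other 2 comparisons had 0 of 12 called by edgeR, with 1 at an unadjusted p under 0.05 in SW480-B against SW480 and 2 in SW480-gRNA-B-all versus SW480-B.

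Among the kinases upstream of AP-1, 1 call was made over the 3 comparisons. Of 28 genes of the RAS, RAF, MAP kinase and RSK families, 0 of 27 tested were called in SW480-gRNA-B-all versus SW480 by edgeR, with 12 at an unadjusted p under 0.05, and 0 of 26 were called in SW480-gRNA-B-all versus SW480-B, with 5 at an unadjusted p under 0.05. In SW480-B against SW480, MAP2K6, a kinase that activates p38, was lower. It was at 24.1, 5.69 and 2.91 CPM in SW480 and at 0.116, 0.321 and 0.106 CPM in SW480-B, which are 3, 9 and 3 counts (log2 fold change -5.84, edgeR adjusted p = 0.0329), and the call was kept in 2 of 6 fits with a library left out. In SW480-gRNA-B-all MAP2K6 was at 0.136, 1.34 and 1.04 CPM, also below every SW480 library, with a value of -3.71 against them that did not pass the test (adjusted p = 0.0727).

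Of 21 genes known as AP-1 targets, 13 were tested in SW480-gRNA-B-all versus SW480. Among those not tested were MMP1, MMP3, MMP10, MMP13, IL6 and IVL, which stayed below 1 CPM in every library. PLAU, the urokinase gene, was at 1.76, 5.69 and 7.13 CPM in SW480 and at 94.3, 30.6 and 30.4 CPM in SW480-gRNA-B-all (log2 fold change 3.41, edgeR adjusted p = 0.0327). PHLDA1 was called lower, at 749, 534 and 207 CPM in SW480 and at 142, 66.7 and 63.2 CPM in SW480-gRNA-B-all (-2.46, adjusted p = 0.0407). The median of the 13 was 0.86 beside -0.05 over all genes. By edgeR, 7 of the 13 had an unadjusted p under 0.05, where 28.4% of all genes had one. The libraries of the lines did not overlap for 8 of 13, against 38.0% of all genes. In SW480-B against SW480, 0 of 12 targets were called by edgeR, 3 had an unadjusted p under 0.05, and the median was 0.66. Between the BASP1-expressing lines the median was 0.26, and 4 of 12 had an unadjusted p under 0.05. In SW480-gRNA-B-all versus SW480-B, PLAU was higher (3.00, adjusted p = 0.0106) and CD44, a hyaluronan receptor, was lower (-1.31, adjusted p = 0.0101). With a library left out, PLAU was called in 5 of 6 fits, without replicate 1 of SW480-B not, CD44 in 4 of 6 and BATF3, named above, in 1 of 6. Each of the 7 calls of related genes in SW480-gRNA-B-all versus SW480 was lost without replicate 2 of SW480 and without replicate 2 or 3 of SW480-gRNA-B-all, with its direction kept. Over all genes, the calls up and down fell from 304 and 751 to 1 and 7, 15 and 63, and 14 and 62 in these fits.

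**Figure D5:**
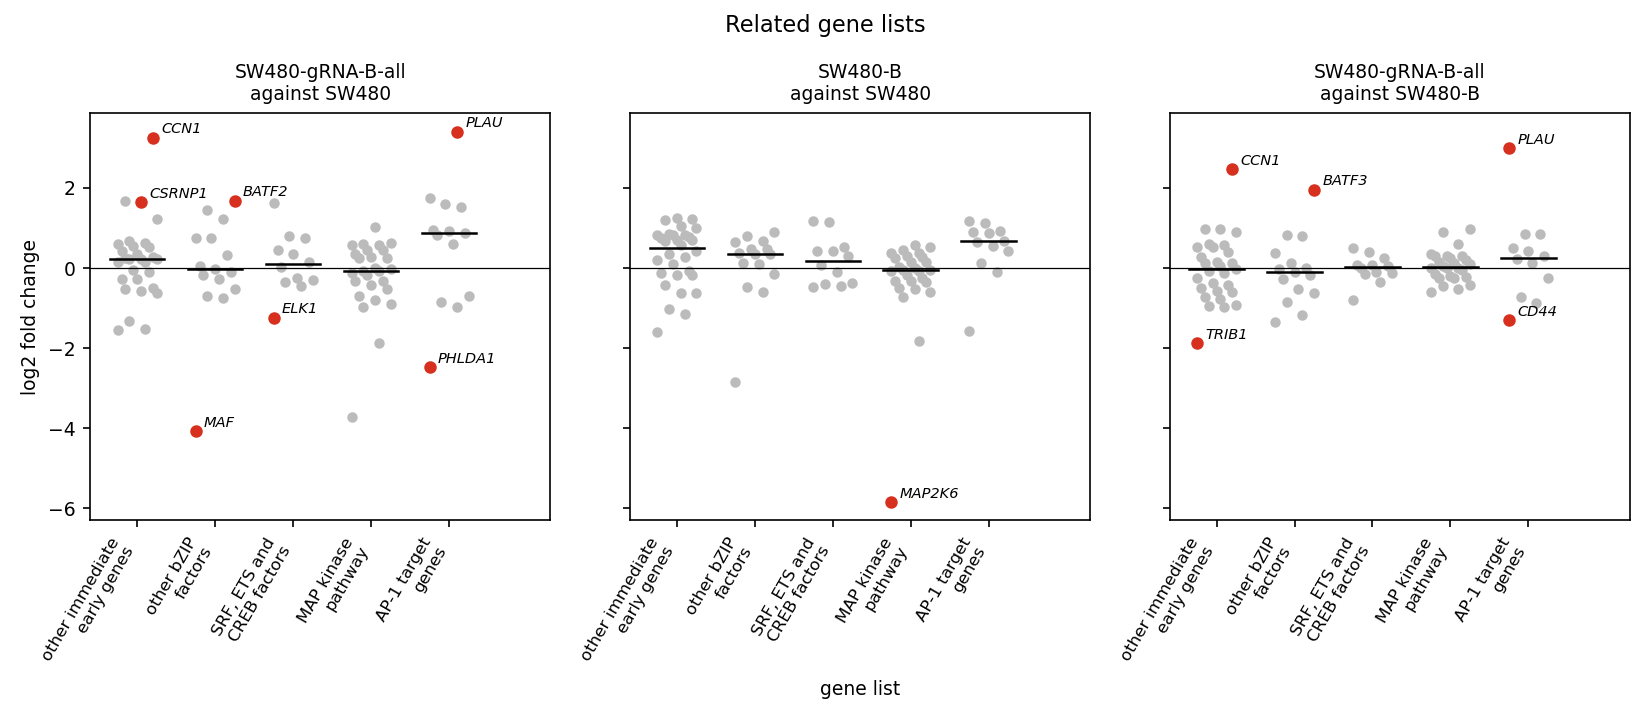
Log2 fold change of every tested gene of 5 related gene lists in the 3 comparisons, with red named points for genes called, gray points for the others and a bar at the median of each list. CCN1 and PLAU lie near the top in both comparisons of SW480-gRNA-B-all, and MAP2K6, at -5.84, is the single named gene in SW480-B against SW480.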

How the data were processed

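The authors aligned stranded paired reads with STAR to GRCh37, per the file headers, and deposited a table of raw counts per Ensembl gene for each library. The counting program and its strand setting are not given in the sources used here. Lines without a gene (fragments on no gene, 5.22% to 9.93%, and on more than 1, 3.09% to 3.44%) stayed out of library sizes. The authors also deposited coverage along transcripts from Picard as a normalized signal, of which the shares of intronic and strand bases beside it were read here. Of 63677 identifiers, 55665 were matched to symbols. Counts were tested with edgeR 4.0.16 (filterByExpr with least count 10 and least total 15, TMM, robust glmQLFit, glmQLFTest) over the 6 libraries of each comparison, with DESeq2 1.42.0 as an alternative, in R 4.3.3, and the tests were tried on simulated data. Standard errors are the log2 fold change over the square root of F. Named genes were the 9, BASP1, up to 5 called genes per list and direction, and the 3 nearest profiles per gene (prior count 2); SRF was added after its values were seen. The members and lists were chosen with earlier results of these data known. Deviations from the line means of same-numbered libraries correlated at 0.290, 0.322 and 0.393 between SW480-B and SW480. Correlations between libraries of unlike number were not computed, so whether replicate numbers mark pairs was not tested. Some genes of the related lists are not reported here, and the lists were counted without them.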

Additional observations from a re-analysis of the deposited data

Results flagged for a closer look

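FOS differed between the BASP1-expressing lines by the test of that difference itself, at -1.68 on the log2 scale for SW480-gRNA-B-all versus SW480-B (edgeR adjusted p = 0.00277), and lay lower in 3 of 3 SW480-gRNA-B-all libraries than in any SW480-B library. With 3 libraries per line, no library was tested as an outlier.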

How the results depend on the processing

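Of 234 log2 fold changes of the 9 genes under alternatives with every library kept, 226 kept direction and call. Apart from FOS in SW480-gRNA-B-all versus SW480-B there was no call to keep, so most of these stayed uncalled. The alternative without a size threshold reused the main fit, so that its directions could not turn. Genes called lower in SW480-gRNA-B-all versus SW480-B numbered 1 in the report, 0 with 9 libraries in 1 fit and 2 with DESeq2. These are counts among the 9 genes. Among all genes tested, the same settings gave 693 of 15846, 473 of 16680 and 1019 of 28815. Signs turned, without a call, for FOSB in SW480-gRNA-B-all versus SW480 (0.071), and for JUNB (0.061) and ATF3 (0.10) in SW480-gRNA-B-all versus SW480-B once its replicates 2 and 3 were summed. With offsets for GC content and exon length they turned for JUND in SW480-B against SW480 (0.11), and for FOSL1 (-0.091) and EGR1 (-0.019) in SW480-gRNA-B-all versus SW480-B. The cause was not tested. BASP1 lost its calls in SW480-gRNA-B-all and SW480-B against SW480 with no filter on counts (adjusted p = 0.0792 and 0.152), the first also with the replicates summed (0.0834), and both without SW480 replicate 2 (0.116 and 0.107) or without any 1 library of the BASP1-expressing line (up to 0.0886 and 0.201).

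With 1 library left out, genes called lower ranged from 0 to 1 in SW480-gRNA-B-all versus SW480 and from 1 to 2 in SW480-gRNA-B-all versus SW480-B, and genes called higher from 0 to 1 in SW480-B against SW480. Log2 fold changes that turned sign ranged from -0.57 to 0.23 (FOSB) and -1.63 to 0.15 (ATF3) in SW480-gRNA-B-all versus SW480, from -0.14 to 0.071 (FOSL2), -0.73 to 0.055 (JUNB), -0.58 to 0.021 (JUND) and -1.15 to 0.35 (ATF3) in SW480-B against SW480, and from -0.16 to 0.50 (FOSL1), -0.45 to 0.066 (JUNB), -0.17 to 0.28 (EGR1), -0.85 to 0.14 (ATF3) and -0.15 to 0.22 (BASP1) in SW480-gRNA-B-all versus SW480-B.

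Over all genes, the calls up and down for SW480-gRNA-B-all versus SW480 numbered 304 and 751, but 860 and 1520 with DESeq2, 20 and 77 with its replicates 2 and 3 summed, 516 and 1064 with 9 libraries in 1 fit, and 1 and 7 to 961 and 1698 with a library left out (SW480 replicate 2 and 3). In SW480-B against SW480 they numbered 15 and 201, but 371 and 732 with DESeq2, 198 and 537 with no filter, 92 and 360 with 9 libraries in 1 fit, 0 and 0 without SW480-B replicate 1 or 2, and 226 and 695 without SW480 replicate 3. In SW480-gRNA-B-all versus SW480-B they numbered 366 and 693, but 558 and 1019 with DESeq2 and 181 and 473 with 9 libraries in 1 fit. They numbered 141 and 305 with the replicates summed, and 135 and 285 to 607 and 941 with a library left out.

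The replicate block changed no call of the 9 genes, with FOS at 0.89 (adjusted p = 0.199) in SW480-B against SW480. Same-numbered libraries of SW480-gRNA-B-all correlated at 0.291, -0.037 and 0.266 with SW480 and at 0.235, -0.087 and 0.241 with SW480-B. Whether these numbers mark pairs was likewise not tested. Under the block FOS was at -0.82 in SW480-gRNA-B-all versus SW480 and at -1.67 versus SW480-B. The lowest count of the 9 genes in any library was 63, and the part of depth in the results was not tested.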
